A study of Mus musculus with 56 samples.

Results

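Ifng, Il3, Il4, Il10, Il13, Csf2, Il16, Tgfb1 and Mif are 9 cytokine genes of helper T cells other than Il2, and their messenger RNA was followed here in mouse CD4 T cells before and after activation. Each gene was taken as the row of its symbol in the count table of each of 2 experiments, which hold 19791 and 24421 symbols. The cells were spleen CD4 T cells of C57BL/6 mice, and all activated cells received beads coated with antibodies to CD3 and CD28. Experiment 1 had 18 libraries in 6 groups of 3. They were naive cells (CD44-CD62L+), mature cells (CD44+CD62L-), both enriched on magnetic columns without activation, and naive cells activated for 48 or 72 h from 250000 cells per ml and then sorted as CD62L positive or CD62L negative. Experiment 2 had 38 libraries in 13 groups: naive cells; cells activated from 1000000 cells per ml (high) or 62500 cells per ml (low) for 18, 30, 48 or 72 h and sorted as CD4+; and cells activated from 250000 cells per ml for 48 or 72 h and sorted as CD44+ and CD62L positive or negative. Groups of experiment 2 had 3 libraries each, except for low at 72 h with 2. Neither the labels nor the design text names a cytokine added to the cultures.

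A naive CD4 T cell makes few effector cytokines; stimulation through the T cell receptor and CD28 opens and transcribes their genes, and which ones depends on the helper fate. IFN-gamma (Ifng) is the signature cytokine of type 1 helper cells and activates macrophages. IL-4 and IL-13 (Il4, Il13) are those of type 2 helper cells, which act on B cells and on epithelium, while IL-3 (Il3) and GM-CSF (Csf2) act on myeloid cells and basophils. IL-10 (Il10) and TGF-beta 1 (Tgfb1) restrain immune responses, and TGF-beta 1 is made as a latent precursor. MIF (Mif), which signals through CD74, and IL-16 (Il16), which is cut from a longer precursor and binds CD4, are made without new induction by many resting lymphocytes. CD62L, a homing receptor for lymph nodes, is kept by naive and central memory cells and shed or lost by effector cells.

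Library totals ran from 58750 to 1738555 counts in experiment 1, where naive replicate 1 was the shallowest library, and from 587118 to 3359875 in experiment 2. Levels are given as CPM after TMM scaling, on the scale of 1 experiment, and are not compared between experiments. The libraries read the 3′ end of each RNA, so CPM needs no length correction. Of the 9 genes, Ifng, Il13, Il16, Tgfb1 and Mif passed the low-count filter in experiment 1, and Il3, Il16, Tgfb1 and Mif in experiment 2. Il3 had 6 counts in all of experiment 1, and Ifng 5 and Il10 5 in all of experiment 2. These 3 rows lie under 10 counts and are given in the text as counts only. The figures draw Il3 of experiment 1 in CPM, and its points there rest on these 6 counts. Adjusted p values are from edgeR's quasi-likelihood test over all 8961 or 9239 genes tested, with a threshold of 0.05, and log2 differences are given ± SE. No label says whether libraries of 1 group came from separate mice or cultures, so the spread behind each p value is that between libraries and may be technical. All 8 CD4 T cell markers listed had counts in each group. In bulk RNA, fewer cells that make a cytokine and less RNA per cell cannot be told apart.

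Il4 and Il13 are neighbours on mouse chromosome 11, as are Csf2 and Il3, and RefSeq lists no gene wholly between the members of either pair. These 4 genes are shown by the 250 bases before their RefSeq start because they form these 2 neighbouring pairs. The sequences are from RefSeq, build GRCm38.p6, all from the minus strand, 5′ to 3′; the count tables were made on mm9, and no position from that build is used. Capitals mark the motifs searched for on both strands, which are GGAAA (the core of NFAT sites), TGANTCA (AP-1), TATAAA (the TATA box) and GATAA (the core of GATA sites).
Il4, chr11:53618666-53618915: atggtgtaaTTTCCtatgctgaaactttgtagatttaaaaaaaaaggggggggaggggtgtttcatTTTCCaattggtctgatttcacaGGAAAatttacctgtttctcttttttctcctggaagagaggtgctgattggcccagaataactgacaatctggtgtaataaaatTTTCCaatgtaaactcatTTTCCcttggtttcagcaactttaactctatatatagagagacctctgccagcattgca
Il13, chr11:53634703-53634952: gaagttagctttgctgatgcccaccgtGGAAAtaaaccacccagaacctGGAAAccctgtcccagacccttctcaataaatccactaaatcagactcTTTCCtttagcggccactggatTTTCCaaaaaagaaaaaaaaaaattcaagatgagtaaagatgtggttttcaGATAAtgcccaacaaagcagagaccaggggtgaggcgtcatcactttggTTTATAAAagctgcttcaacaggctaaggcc
Csf2, chr11:54249900-54250149: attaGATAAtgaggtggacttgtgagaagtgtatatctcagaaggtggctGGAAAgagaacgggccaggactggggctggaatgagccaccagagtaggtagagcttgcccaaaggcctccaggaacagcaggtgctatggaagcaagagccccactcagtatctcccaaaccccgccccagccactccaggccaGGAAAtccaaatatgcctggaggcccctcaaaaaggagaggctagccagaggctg
Il3, chr11:54267280-54267529: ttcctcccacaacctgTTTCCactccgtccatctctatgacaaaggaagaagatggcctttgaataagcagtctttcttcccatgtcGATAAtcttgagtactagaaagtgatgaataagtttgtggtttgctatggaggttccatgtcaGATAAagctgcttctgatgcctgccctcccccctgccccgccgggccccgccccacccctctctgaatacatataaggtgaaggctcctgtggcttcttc

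The Il4 window, the one farthest upstream of 2 RefSeq entries, held 5 GGAAA matches. The Il13 window held 4 GGAAA, 2 overlapping TATAAA matches (1 on each strand) and 1 GATAA. Csf2 had 2 GGAAA and 1 GATAA, and Il3 had 1 GGAAA and 2 GATAA. None of these 4 windows held TGANTCA. Of 32851 promoter windows of 300 bases (250 before and 50 after the start), 61.3% held GGAAA, 25.4% GATAA, 13.6% TATAAA and 7.81% TGANTCA, so GGAAA marked most promoters. Ifng had 1 GGAAA and 1 TATAAA in its 300 bases, Mif had 2 GGAAA, and Tgfb1 had none of the 4 motifs. Il16 has 3 RefSeq entries, with 1, 1 and 3 GGAAA, and the first also held 1 TGANTCA and the third 1 GATAA. Of the 9 genes 8 have an entry in the promoter table; the other is Il10. A match is a string of letters, and binding was not measured.

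Ifng RNA was present before activation in experiment 1 and lower after it. In experiment 2 all 3 naive libraries had 0 Ifng counts, of 5761441 counts in all, against 644943 in the naive libraries of experiment 1. Naive libraries of experiment 1 had 3, 21 and 23 Ifng counts, or 46.0, 87.9 and 70.8 CPM. Its mature libraries had 84, 64 and 63 counts, or 160, 129 and 102 CPM. The groups did not overlap, and the mean was 68.2 ± 21.1 CPM (SD, n = 3) in naive and 130 ± 29.1 (SD, n = 3) in mature cells. Ifng was higher in mature cells by 0.80 ± 0.28 on the log2 scale (edgeR adjusted p = 0.047), the only one of the 5 genes tested that passed, where 16.4% of all genes did. This call did not hold in DESeq2 (adjusted p = 0.0729) or when mature replicate 1 or 2 or any naive library was left out, with adjusted p between 0.0335 and 0.189 over the 6 libraries left out in turn. Il13 had 3, 2 and 3 counts in mature and 0 in all naive libraries (edgeR adjusted p = 0.139), and Il10 had 9 counts over the mature and 1 over the naive libraries. Il16, Tgfb1 and Mif differed by -0.19 ± 0.15, -0.70 ± 0.29 and -0.26 on the log2 scale without passing; Tgfb1 passed without naive replicate 1, the shallowest library (adjusted p = 0.0492).

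Both unactivated groups of experiment 1 carried RNA of other cell types. The summed level of 8 CD8 T and NK cell markers was 337 to 542 CPM in naive and 481 to 561 in mature libraries, against 26.7 to 59.7 in the activated sorted ones. B cell markers summed to 889 to 1594 CPM in naive and 594 to 654 in mature libraries, with Pax5 at 0 in both, against 6.06 to 23.5 after activation. Myeloid markers summed to 597 to 1330 CPM in naive and 244 to 269 in mature libraries, against 12.3 to 66.4. CD8 T and NK cells also transcribe Ifng, and Cd8a was at 52.1 CPM in naive and 10.4 in mature cells while Klrb1c was at 37.2 and 120. The part of these cells in the Ifng levels, and in the other comparisons with naive or mature cells of experiment 1, was not tested. In experiment 2 the CD8 T and NK markers summed to 15.5 to 104 CPM. Klrk1, Ncr1 and Klrb1c were at 0 throughout, while Cd8b1 had counts in each group. Ifng had 0 counts in 33 of 38 libraries there. It had 2 counts over the high libraries at 18 h, where these markers summed to 72.5 to 104 CPM. The rest were 1 count each in low at 30 h and in CD62L negative cells at 48 and 72 h. In these groups the markers summed to 31.7 to 38.6, 17.8 to 26.4 and 16.4 to 22.6 CPM. The part of CD8 T and NK cells was not tested there either.

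**Figure D1:**
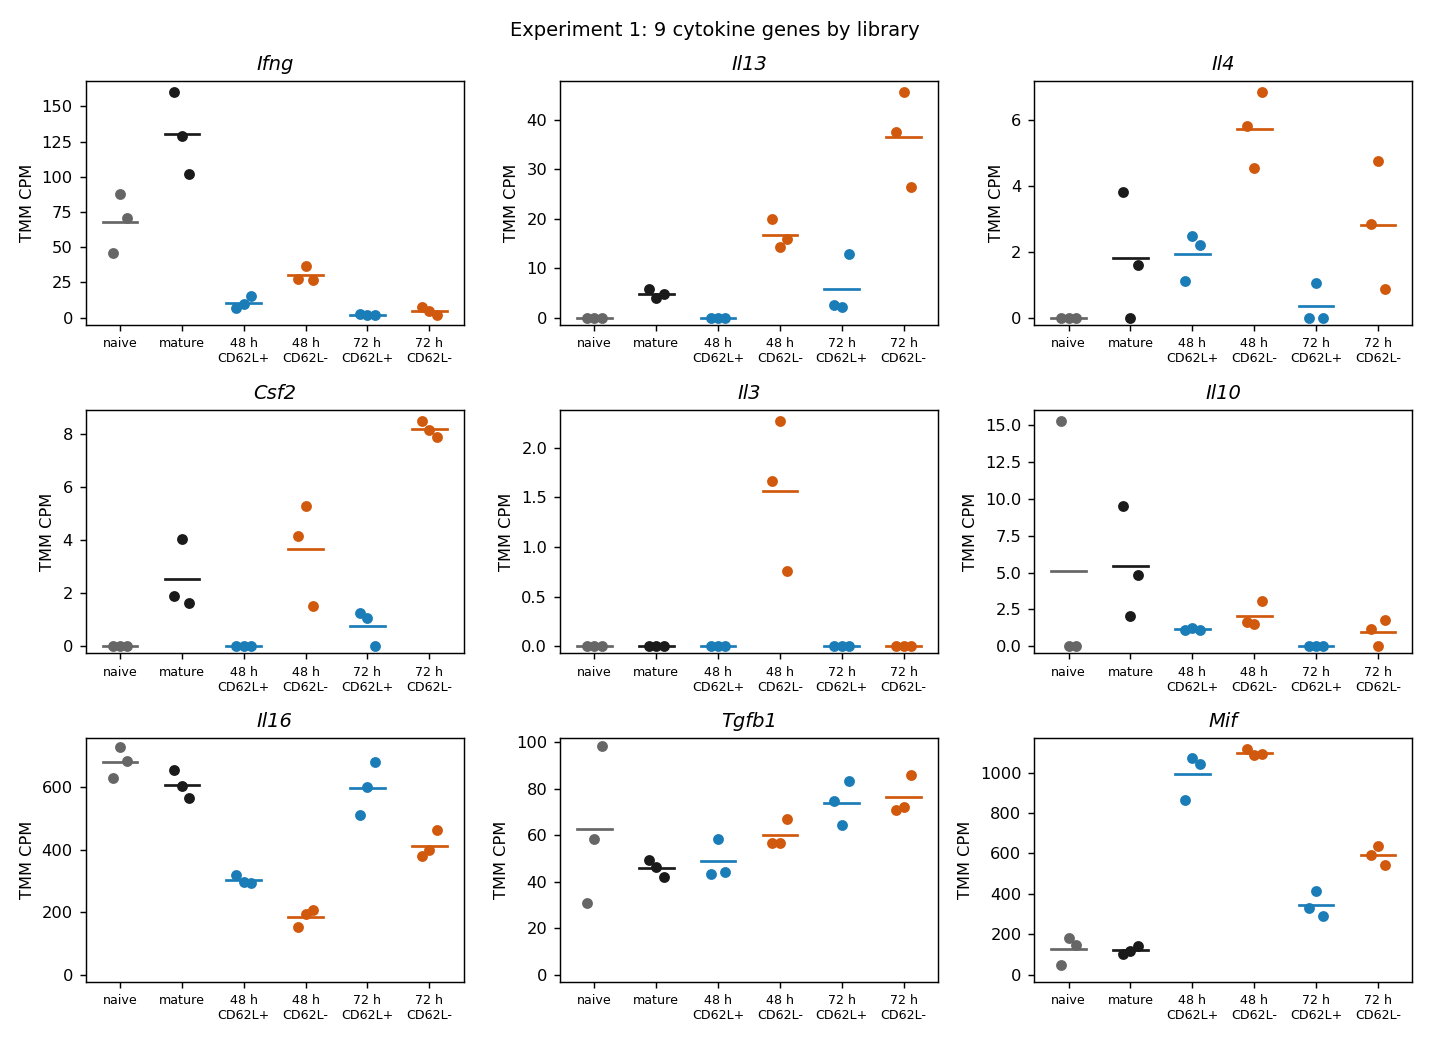
Levels of the 9 cytokine genes in experiment 1, in TMM CPM on the y axis, with 1 point per library, 3 libraries per group and a bar at the group mean; each panel has its own scale. Ifng lies highest in unactivated cells, Il13 and Csf2 in CD62L negative activated cells, and Mif at 48 h.

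After activation Ifng was at 6.66, 9.97 and 15.5 CPM in CD62L positive and 27.5, 36.3 and 26.7 in CD62L negative libraries at 48 h. At 72 h it had 2, 2 and 1 counts in CD62L positive and 13, 7 and 2 in CD62L negative libraries. The mean over the 4 activated groups was below naive by 3.22 ± 0.33 on the log2 scale (edgeR adjusted p = 3.33e-10). In that comparison 3 of the 5 genes tested passed, where 56.1% of all genes did. Ifng fell by 2.37 ± 0.34 from 48 to 72 h over both sorts (edgeR adjusted p = 3.02e-07); all 5 genes passed there, as did 52.5% of all genes. CD62L negative cells had more Ifng than CD62L positive cells at 48 h, 2.79-fold (log2 difference, positive minus negative, -1.48 ± 0.32, edgeR adjusted p = 0.00249), and the libraries did not overlap. At 72 h the difference was -1.09 ± 0.66 (edgeR adjusted p = 0.26), on 5 against 22 counts.

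Il13 separated the 2 sorts of experiment 1 at both times. At 48 h in experiment 1 it had 24, 19 and 21 counts in CD62L negative libraries, or 20.0, 14.4 and 16.0 CPM, and 0 in all 3 CD62L positive libraries. Against the floor of 3 counts over the CD62L positive group, Il13 was at least 14.5-fold higher in CD62L negative cells (edgeR adjusted p = 5.09e-06). Here and below, a fold given as at least sets the observed counts against such a floor and is not a lower confidence limit. At 72 h CD62L negative libraries had 66, 67 and 30 counts (37.4, 45.6 and 26.4 CPM), and CD62L positive libraries had 2, 2 and 6 (2.53, 2.11 and 12.8 CPM). Pooled over the libraries the ratio at 72 h was 8.23 (exact 95% counting interval 4.36 to 17.5), and the fitted log2 difference was -2.96 ± 0.43 (edgeR adjusted p = 5.99e-06). Leaving out any 1 of these libraries kept the adjusted p at 0.000435 or lower at 72 h and at 0.000126 or lower at 48 h.

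Within the CD62L negative cells the Il13 mean was 16.8 ± 2.9 CPM (SD, n = 3) at 48 h and 36.5 ± 9.64 (SD, n = 3) at 72 h, with no overlap. The test of 72 against 48 h over both sorts passed (edgeR adjusted p = 0.000246); its fold has no fixed size, since the CD62L positive group was at 0 at 48 h. Over the activated groups Il13 had 237 counts against 0 in naive cells, at least 3.82-fold higher; the test could not be fitted with 0 counts in naive and in CD62L positive cells at 48 h. In the CD62L comparison 3 of the 5 genes tested passed at 48 h (Ifng, Il13, Il16), where 6.51% of all genes did, and 3 of 5 at 72 h (Il13, Il16, Mif), where 19.5% did. The change of the CD62L difference between 48 and 72 h passed for none of the 5 in edgeR or in DESeq2, where 1.89% of all genes passed in edgeR. Il13 (edgeR adjusted p = 0.174) and Mif (0.121) were the 2 with an unadjusted p under 0.05, at 0.0107 and 0.00513.

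Csf2 and Il4 lay under the low-count filter in experiment 1 and were tested in a fit of all 14171 symbols with a count, in which 4.8% passed at 48 h and 12.9% at 72 h. Csf2 had 5, 7 and 2 counts in CD62L negative and 0 in CD62L positive libraries at 48 h, at least 3.17-fold higher in CD62L negative cells (edgeR adjusted p = 0.0182). That call was lost without CD62L negative replicate 2 or any of the CD62L positive libraries (adjusted p up to 0.0945). At 72 h Csf2 had 15, 12 and 9 counts (8.51, 8.16 and 7.91 CPM) against 1, 1 and 0, a ratio of 9.09 (exact 95% counting interval 2.34 to 78.0, edgeR adjusted p = 0.00381), and it passed with each library left out. Il4 had 7, 6 and 9 counts in CD62L negative and 1, 2 and 2 in CD62L positive libraries at 48 h, and 5, 7 and 1 against 0, 1 and 0 at 72 h. Its ratios of 2.99 (1.11 to 10.1) and 6.57 (0.986 to 279) did not pass (edgeR adjusted p = 0.299 and 0.168). Il3 had counts in 3 libraries of experiment 1, all CD62L negative at 48 h, with 2, 3 and 1. Il10 had 8 counts in CD62L negative and 3 in CD62L positive cells at 48 h, and 4 and 0 at 72 h. The CD62L negative groups held more counts in all, 3774829 against 2612534 at 48 h and 4357182 against 2318111 at 72 h. At 48 h the Il10 ratio, negative over positive, was 1.81 (exact 95% counting interval 0.435 to 10.6).

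Experiment 2 gave the same sorts from cultures of the same starting concentration, with the added gate on CD44. Il13 had 5, 9 and 6 counts in CD62L negative libraries at 48 h (2.77, 2.58 and 3.02 CPM) and 0, 0 and 1 in CD62L positive ones. The ratio was 12.9 (exact 95% counting interval 2.07 to 537) and did not pass in the fit of all 15497 symbols (edgeR adjusted p = 0.0676), where 8.92% did. At 72 h Il13 had 6, 2 and 9 counts (5.28, 1.64 and 7.28 CPM) against 0 in all CD62L positive libraries, at least 7.12-fold higher in CD62L negative cells (edgeR adjusted p = 0.0155), where 1.17% of all symbols passed. Leaving out CD62L negative replicate 1 or 3 or any CD62L positive library ended that call (adjusted p up to 0.131). Csf2 had 2, 9 and 3 counts against 0 at 48 h, at least 3.02-fold higher (edgeR adjusted p = 0.0551, and 0.0494 without CD62L negative replicate 1). At 72 h it had 4, 0 and 0 against 2, 0 and 0. Il3 had 2, 11 and 1 counts in CD62L negative and 0 in CD62L positive libraries at 48 h, at least 3.02-fold higher in CD62L negative cells (edgeR adjusted p = 0.0318).

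Without CD62L negative replicate 2, which held 11 of the 14 Il3 counts, the adjusted p was 0.26, and without any 1 of the CD62L positive libraries it was 0.0862 to 0.102. At 72 h Il3 had 1 count in each sort. Of the 4 genes tested in experiment 2, Il3 and Tgfb1 passed the CD62L test at 48 h, where 14.5% of all genes did, and none passed at 72 h in edgeR or DESeq2, where 1.53% did in edgeR. Tgfb1 alone had an unadjusted p under 0.05 at 72 h (0.0253). None of the 4 passed the test of the change between the 2 times, with either tool or with an unadjusted p under 0.05, where 1.3% of all genes did in edgeR. Mast cells and basophils also make IL-4, IL-13 and IL-3. Their 8 markers summed to 59.1 to 68.7 CPM in mature and 61.3 to 79.5 in naive libraries of experiment 1. Mcpt8 was at 0 in both, and Cpa3, Ms4a2 and Il1rl1 were also at 0 in naive cells. In the activated libraries of experiment 1 the sum was 1.25 to 14.9 CPM, with Mcpt8, Cpa3, Fcer1a and Prss34 at 0 in each group. In experiment 2 it was 0 to 8.37 CPM, with Fcer1a and Ms4a2 at 0 throughout. The part of mast cells and basophils in these cytokine levels was not tested.

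**Figure D2:**
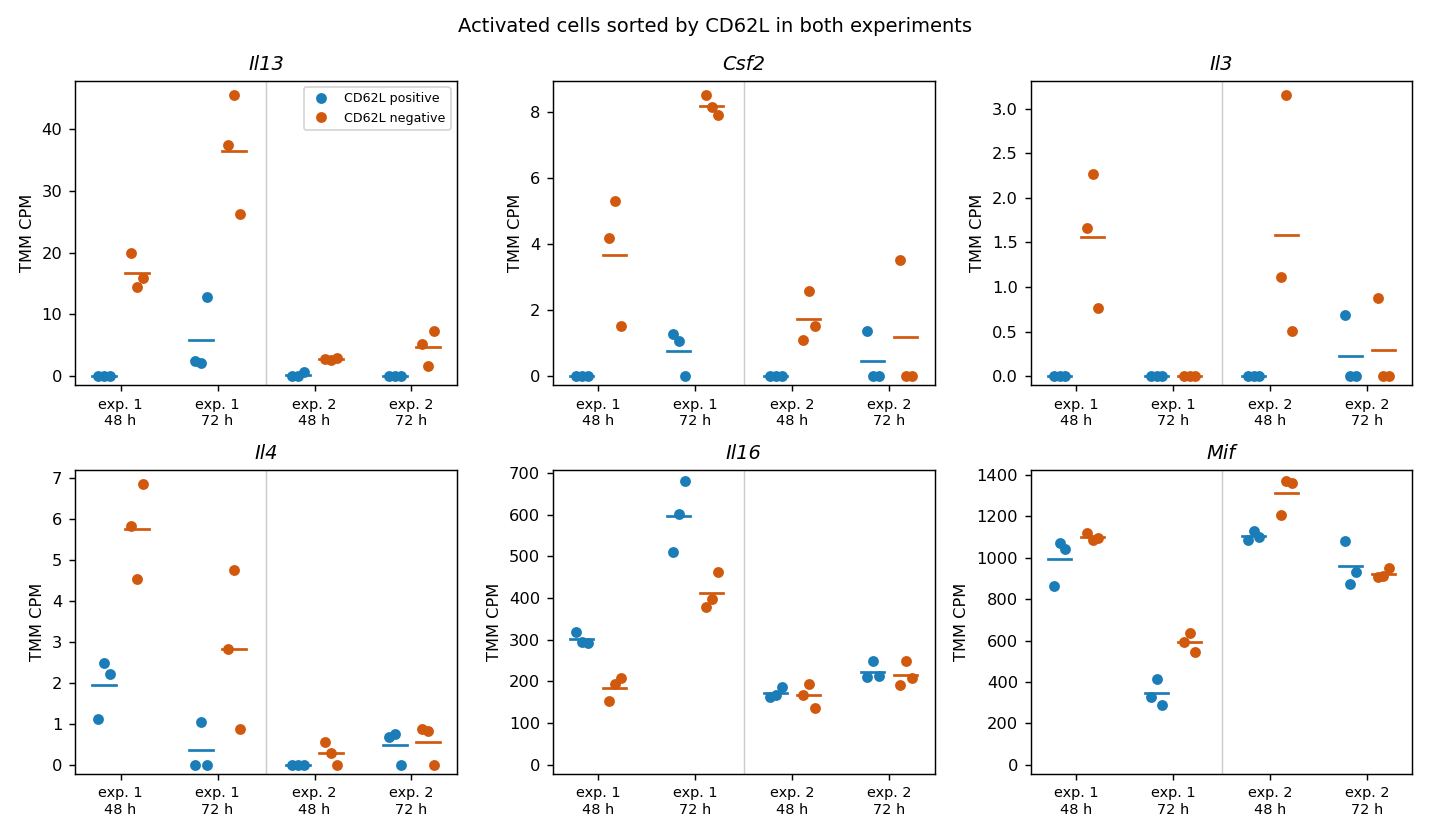
Levels of Il13, Csf2, Il3, Il4, Il16 and Mif in CD62L positive and negative cells of both experiments at 48 and 72 h, in TMM CPM on the y axis, with 1 point per library, 3 per group, and a bar at the mean. Il13 is higher in CD62L negative libraries in all 4 comparisons, and levels are not comparable between the experiments, split by the vertical line.

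In experiment 2 Il3 had 0 counts in naive cells and 20, 19 and 10 counts in high libraries at 18 h, or 18.6, 14.1 and 9.13 CPM. Low libraries at 18 h had 4, 2 and 0 counts, or 2.91, 2.42 and 0 CPM, and did not overlap with the high ones. Over both concentrations Il3 had 55 counts at 18 h against 0 in naive cells, at least 14.0-fold higher (edgeR adjusted p = 6.78e-05). All 4 genes tested passed in that comparison, as did 65.9% of all genes. The ratio of high to low at 18 h was 6.42 (exact 95% counting interval 2.75 to 18.3) on 49 against 6 counts, and the log2 difference was 2.67 ± 0.71 (edgeR adjusted p = 0.0318). Of the 4 genes Il3 was the one that passed, where 1.87% of all genes did. The call ended when high replicate 1 or 2 or any low library was left out, with adjusted p between 0.0400 and 0.153 over the 6 left out in turn and a log2 difference of 2.33 to 3.23.

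From 30 h on the Il3 libraries of the 2 concentrations overlapped. At 30 h high libraries had 5.75, 4.36 and 6.34 CPM and low libraries 1.80, 2.75 and 4.86 CPM, a log2 difference of 0.74 ± 0.59 (edgeR adjusted p = 0.505). At 48 h the counts were 1, 1 and 10 at high and 7, 1 and 6 at low, and at 72 h 1 count was found at each concentration. The change of the high minus low difference over the 4 times did not pass for Il3 (edgeR adjusted p = 0.163). The mean level was 14.0, 5.48, 1.99 and 0.307 CPM at 18, 30, 48 and 72 h at high and 1.78, 3.14, 2.21 and 0.294 at low. The step from 18 to 30 h was tested only over both concentrations and did not pass (edgeR adjusted p = 0.648). In that step the mean fell at high, where the libraries did not overlap, and rose at low, and neither change was tested alone. The later steps did not pass (edgeR adjusted p = 0.147 and 0.715 from 30 to 48 h and 0.108 and 0.122 from 48 to 72 h, high and then low). Il13 had 0 counts in all libraries at 18 h, then 5 and 4 at 30 h, 2 and 8 at 48 h and 3 and 1 at 72 h (high, then low). Csf2 had 0 and 1 counts at 18 h, 8 and 7 at 30 h and 3 and 3 at 48 h. The 18 h groups hold fewer counts in all, 3565455 and 2904222 against 6679003 and 5628678 at 30 h. Over pooled libraries Csf2 was at 0 and 0.362 CPM at 18 h and 1.21 and 1.22 at 30 h. In the fit of all symbols the step from 18 to 30 h did not pass for Il13 (9 against 0 counts, edgeR adjusted p = 0.11) or Csf2 (15 against 1, 0.107). Il4 had 11 counts in all 38 libraries.

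**Figure D3:**
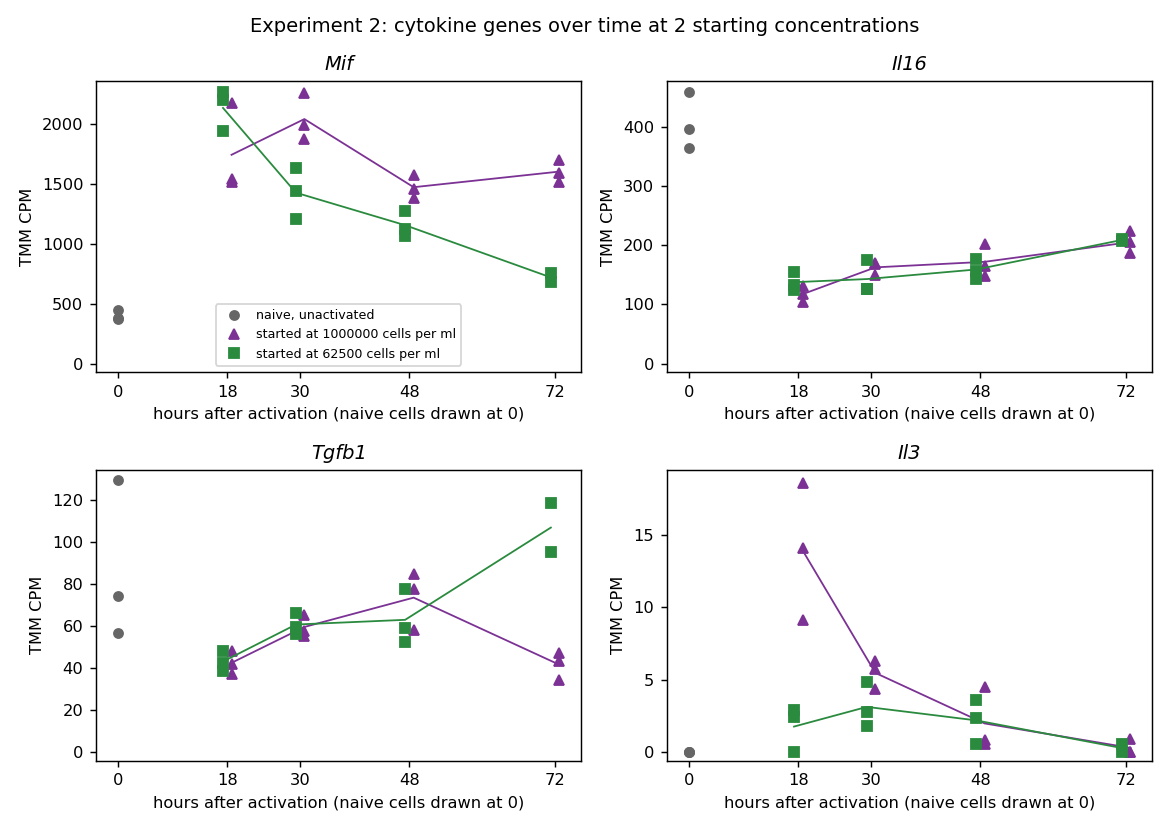
Levels of Mif, Il16, Tgfb1 and Il3 in experiment 2 in TMM CPM on the y axis, against hours after activation, with naive cells at 0; each point is a library and lines join the means of the high and low cultures. Mif rises and Il16 falls by 18 h, Il3 is highest at 18 h in the high cultures, and the 72 h Tgfb1 and Mif libraries separate by concentration.

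Mif was the most abundant of the 9 in both tables, with 10478 and 80807 counts. In naive cells of experiment 2 it was at 378, 444 and 372 CPM, and at 18 h at 1540, 2173 and 1513 CPM in high and 1940, 2262 and 2195 in low libraries. All activated libraries lay above all naive ones. The rise from naive to 18 h was 2.27 ± 0.13 on the log2 scale (edgeR adjusted p = 2.19e-21). In experiment 1 naive cells had 46.0, 180 and 148 CPM and mature cells 101, 119 and 144, while activated cells had 865 to 1118 at 48 h and 290 to 637 at 72 h. The mean over the activated groups was 4.68-fold above naive (log2 difference 2.23 ± 0.18, edgeR adjusted p = 9.16e-13), and Mif fell by 1.20 ± 0.10 from 48 to 72 h (edgeR adjusted p = 5.17e-12). RefSeq lists 3 pseudogenes of Mif (Mif-ps, Mif-ps3, Mif-ps7), and how shared reads were counted is not given, so part of the Mif count is uncertain.

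Mif was higher in high than in low cultures from 30 h on. At 30 h high libraries had 1989, 1873 and 2258 CPM and low libraries 1202, 1443 and 1632, with no overlap. At 72 h high libraries had 1593, 1701 and 1511 CPM and the 2 low libraries 681 and 757. The log2 differences, high minus low, were -0.29 ± 0.13 at 18 h (edgeR adjusted p = 0.363), 0.52 ± 0.13 at 30 h (0.00751), 0.35 ± 0.13 at 48 h (0.0414) and 1.16 ± 0.15 at 72 h (6.75e-08). Their change over the 4 times passed (edgeR F = 17.8, adjusted p = 2.22e-06). Mif was the only one of the 4 genes tested to pass at 30 h, where 8.56% of all genes did, and at 48 h, where 25.9% did. At 72 h Mif and Tgfb1 passed, where 26.5% of all genes did, and the same 2 passed the test over the 4 times, as did 30.5%.

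The Mif call at 30 h ended without high replicate 3 (edgeR adjusted p = 0.0649) or low replicate 1 (0.0779). The call at 48 h ended without high replicate 1 or 2 or low replicate 2 or 3 (adjusted p up to 0.172). At 48 h the level was 1460, 1572 and 1382 CPM at high and 1275, 1126 and 1062 at low. Library titles of experiment 2 end in a further number of 1 or 2 that the labels do not explain, called the second number here; at 72 h high libraries have number 1 and low libraries number 2, so number and concentration cannot be told apart there. With the number as a factor the Mif difference was 1.34 at 72 h (edgeR adjusted p = 5.47e-08), and at 48 h it did not pass (0.263). At 48 h all high libraries and low replicate 1 have number 2, and among these the difference did not pass (0.577). All libraries at 30 h have number 2.

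The time steps in these cultures share libraries with each other and with the concentration comparisons. All libraries at 18 h have second number 1 and all at 30 h number 2, so the libraries of that step alone cannot tell time and number apart; with the number as a factor over all groups 1117 genes passed in it instead of 2270, and 0 of the 4 members. The step from 18 to 30 h was tested only on the mean of high and low. None of the 4 genes passed it in edgeR or DESeq2, where 24.6% of all genes did in edgeR. Il16 and Tgfb1 had unadjusted edgeR p of 0.0212 and 0.0166. Mean Mif moved in opposite directions in this step, from 1742 to 2040 CPM at high and from 2133 to 1426 at low. The low libraries of 18 and 30 h did not overlap, and neither concentration was tested alone. From 30 to 48 h Mif fell by 0.47 ± 0.13 on the log2 scale at high (edgeR adjusted p = 0.00437), the only one of 4 where 30.1% of all genes passed. At low none of the 4 passed in edgeR or DESeq2, where 9.28% did in edgeR, and Mif had an unadjusted p of 0.0239. From 48 to 72 h only Tgfb1 of the 4 passed at high, where 23.5% of all genes did, and Tgfb1 and Mif passed at low, where 25.8% did. Mif fell by 0.68 ± 0.15 in that step at low (edgeR adjusted p = 0.000444).

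By CD62L, Mif differed at 72 h of experiment 1. CD62L positive libraries had 329, 415 and 290 CPM and CD62L negative libraries 594, 637 and 543, with no overlap, and the level was 1.70-fold higher in CD62L negative cells (log2 difference, positive minus negative, -0.77 ± 0.15, edgeR adjusted p = 0.000304). At 48 h the difference was -0.15 ± 0.14 (0.638). In experiment 2 it was -0.25 ± 0.13 at 48 h (0.219) and 0.06 ± 0.13 at 72 h (0.924), where CD62L positive libraries had 1083, 873 and 931 CPM and CD62L negative ones 909, 909 and 952. Over both sorts Mif fell by 0.35 ± 0.09 from 48 to 72 h in experiment 2 (edgeR adjusted p = 0.002); 2 of the 4 genes tested passed in that step, where 37.8% of all genes did. Sorted cells exceeded naive cells by 1.42 ± 0.12 (edgeR adjusted p = 2.4e-15), and 3 of 4 genes passed that test, where 63.8% of all genes did.

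**Figure D4:**
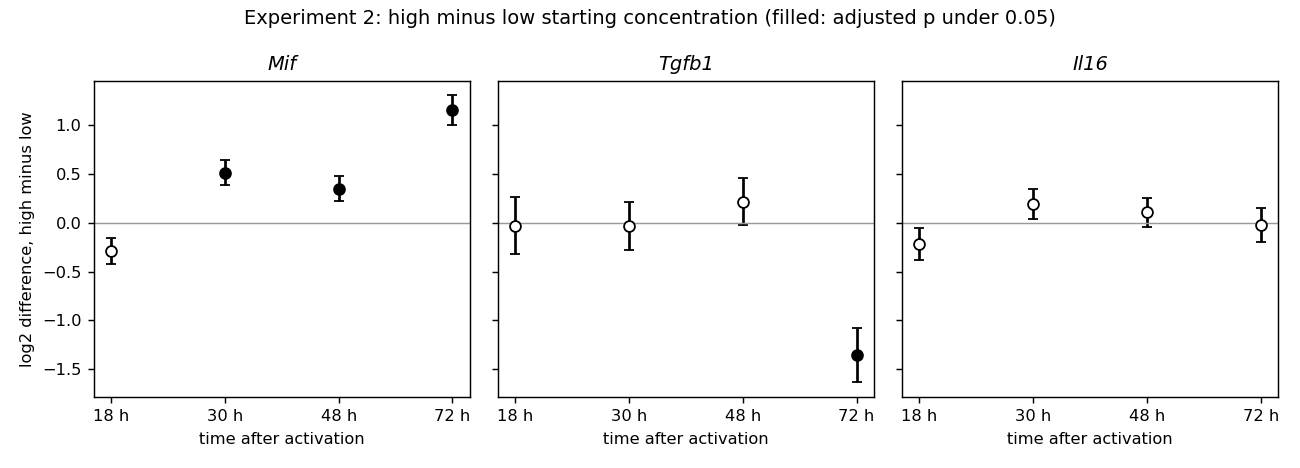
Fitted log2 differences, high minus low, on the y axis with bars of 1 SE, for Mif, Tgfb1 and Il16 at 18, 30, 48 and 72 h of experiment 2; filled points passed at an adjusted p of 0.05. Mif passes from 30 h on with high above low, Tgfb1 at 72 h with high below low, and Il16 at no time.

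Il16 moved opposite to Mif at the start of activation. Its level in experiment 2 was 396, 460 and 365 CPM in naive cells and 104 to 155 CPM over the 6 libraries at 18 h, with no overlap (log2 difference -1.68 ± 0.13, edgeR adjusted p = 1.99e-16). It was at 126 to 176 CPM at 30 h, 143 to 203 at 48 h and 187 to 224 at 72 h in the high and low cultures, so no library came back to the naive range. Concentration made no difference that passed at any time: the log2 differences, high minus low, were -0.22 at 18 h (edgeR adjusted p = 0.707), 0.19 at 30 h (0.497), 0.11 at 48 h (0.67) and -0.02 ± 0.17 at 72 h (0.941). In the sorted cells of experiment 2 Il16 rose by 0.38 ± 0.11 from 48 to 72 h (edgeR adjusted p = 0.0044) and stayed below naive by 1.08 ± 0.11 (4.63e-12).

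In experiment 1 Il16 was at 628, 728 and 683 CPM in naive and 655, 602 and 566 in mature cells. At 48 h it was at 319, 295 and 293 CPM in CD62L positive and 153, 194 and 207 in CD62L negative libraries, and at 72 h at 511, 601 and 680 against 378, 397 and 463. The libraries of the 2 sorts did not overlap at either time. The level was higher in CD62L positive cells, 1.63-fold at 48 h (log2 difference 0.71 ± 0.14, edgeR adjusted p = 0.000749) and 1.44-fold at 72 h (0.53 ± 0.13, 0.00362), and it rose by 1.07 ± 0.10 from 48 to 72 h over both sorts (1.26e-11). Over the activated groups Il16 was below naive by 1.02 ± 0.12 (edgeR adjusted p = 4.23e-09). In experiment 2 the CD62L difference was 0.04 at 48 h (edgeR adjusted p = 0.90) and 0.05 ± 0.15 at 72 h (0.944), with overlapping libraries. The 2 experiments were not tested against each other.

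Tgfb1 fell from naive cells to 18 h in experiment 2 and then diverged by concentration at 72 h. Naive libraries had 56.9, 130 and 74.2 CPM, and the 6 libraries at 18 h had 37.5 to 48.4, with no overlap (log2 difference -1.01 ± 0.22, edgeR adjusted p = 9.02e-05). At 30 h the level was 55.5 to 66.5 CPM over both concentrations. At 48 h it was 77.8, 84.8 and 58.1 CPM at high and 77.5, 59.1 and 52.5 at low. At 72 h high libraries had 43.7, 34.3 and 47.0 CPM and low libraries 118 and 95.3. High was below low at 72 h by 1.36 ± 0.28 on the log2 scale (log2 difference -1.36, edgeR adjusted p = 0.000269). At 18, 30 and 48 h the differences were -0.03, -0.03 and 0.22 (edgeR adjusted p = 0.991, 0.962 and 0.566). Of 8 regulatory T cell markers, 5 were lower at high at 72 h and none higher (median log2 difference -0.94). Over all genes 26.5% passed there in either direction. Foxp3 was at 4.38 CPM at high and 32.2 at low, while the summed level of the 8 overlapped, at 1304 to 1352 and 1273 to 1475 CPM. At 48 h, where the Tgfb1 difference did not pass, the sum was 1900 to 2144 CPM at high and 1140 to 1155 at low. By CD62L at 48 h it was 1456 to 1538 CPM in CD62L positive cells, where Tgfb1 was lower, and 1137 to 1316 in CD62L negative cells. Regulatory T cells are known to make TGF-beta 1, and their part in the Tgfb1 levels was not tested. The change over the 4 times passed (edgeR F = 6.79, adjusted p = 0.00486), though not without low replicate 1 at 72 h (0.0566).

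The second number in the titles moved with Tgfb1. At 48 h among CD62L negative cells, replicate 1 with number 1 had 30.0 CPM and replicates 2 and 3 with number 2 had 81.7 and 85.5. The 3 CD62L positive libraries, all number 1, had 40.2, 39.7 and 40.4 CPM. At low at 48 h, replicate 1 with number 2 had 77.5 CPM and the other libraries, with number 1, had 59.1 and 52.5. At 72 h the order of the numbers was not the same: CD62L negative replicates 1 and 2 with number 1 had 62.5 and 94.0 CPM and replicate 3 with number 2 had 69.5, and CD62L positive replicate 1 with number 2 had 51.1 against 42.0 and 55.7. With the number as a factor, high was below low at 72 h with a log2 difference of -0.91 (edgeR adjusted p = 0.0448), and the change over the 4 times gave F = 1.90 (0.283). Since all high libraries at 72 h have number 1 and both low libraries number 2, concentration and number cannot be told apart at 72 h.

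By CD62L, Tgfb1 was lower in CD62L positive cells at 48 h of experiment 2 by 0.73 ± 0.25 on the log2 scale (log2 difference -0.73, edgeR adjusted p = 0.044). Among libraries with number 1 alone the sign turned, to 0.43, and with the number as a factor the difference was -0.37 (edgeR adjusted p = 0.469). Leaving out CD62L negative replicate 2 or 3 or any CD62L positive library ended the call (adjusted p up to 0.267). In experiment 1 the CD62L difference was -0.31 ± 0.20 at 48 h (edgeR adjusted p = 0.421) and -0.06 ± 0.19 at 72 h (0.868), and Tgfb1 rose by 0.46 ± 0.14 from 48 to 72 h over both sorts (0.005). Activated and naive cells of experiment 1 differed by -0.24 ± 0.23 (edgeR adjusted p = 0.387), with the sign turned, to 0.29, without naive replicate 3. In experiment 2 the sorted cells were below naive by 0.63 ± 0.19 (edgeR adjusted p = 0.00333), which did not hold without naive replicate 2, the highest library (0.356). From 48 to 72 h Tgfb1 fell by 0.81 ± 0.27 at high (edgeR adjusted p = 0.0213) and rose by 0.77 ± 0.26 at low (0.0275). Each of these steps lost its call when any of 4 libraries was left out, high replicates 1 and 2 at both times for the first (adjusted p up to 0.0989) and low replicates 2 and 3 at 48 h and both at 72 h for the second (up to 0.26). Each step also compares unlike second numbers.

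Other T cell cytokine genes were counted from a list of 14, of which 7 passed the filter in each experiment. From naive to 18 h in experiment 2, 4 rose and 1 fell (median log2 difference 2.26, against 0 over all genes, of which 65.9% passed); Il2 was at 0.767 CPM in naive cells and 393 at 18 h, and Tnf rose by 3.84 ± 0.22 (edgeR adjusted p = 4.35e-21). At 48 h in experiment 2 all 7 differed between high and low, 3 higher and 4 lower at high, where 25.9% of all genes differed. Il9, a cytokine of mast cell growth, was at 0.202 CPM at high and 12.8 at low, and Lif at 39.0 and 13.9. In CD62L negative cells Il2 was higher at 48 h, with a log2 difference, positive minus negative, of -4.13 ± 0.29 in experiment 1 (6.61 and 117 CPM) and -5.98 ± 0.41 in experiment 2, where CD62L negative cells had 97.6 CPM. Lta, which encodes lymphotoxin alpha, was lower at high than at low at 18, 30 and 72 h, with 329 and 1407 CPM at 72 h. Concentration and second number cannot be told apart at 72 h.

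Receptor genes of the 9 cytokines, a list of 14, moved as follows. In the sorted cells of experiment 1, 8 of 12 tested rose from 48 to 72 h and none fell (median log2 difference 0.67, against 0.02 over all genes, of which 27.2% rose and 25.3% fell). Ifngr1 rose from 81.5 to 282 CPM and Tgfbr2 from 55.2 to 118. At 18 h of experiment 2, 8 of 10 lay below naive and 1 above (median -0.98, against 0 over all genes, of which 33.6% lay below and 32.3% above). Il10ra, a chain of the IL-10 receptor, was at 17.1 CPM in naive cells and 2.11 at 18 h, while Cd74, the MIF receptor, was at 1.87 and 12.4. CD62L positive cells of experiment 1 had more receptor RNA for 4 of 12 genes at 48 h and 3 at 72 h, with none lower (medians 0.33 and 0.40, against 0.01 and -0.0012 over all genes, of which 4.05% and 10.1% were higher). Among them Il10ra was higher by 1.05 ± 0.23 at 48 h (edgeR adjusted p = 0.00202). In experiment 2, 2 were higher and 1 lower of 10 at 48 h, where 14.5% of all genes passed, and 0 passed at 72 h, where 1.53% did. Tgfbr1, a TGF-beta receptor chain, was below low in high cultures at 18, 30 and 72 h, by 1.25 ± 0.27, 1.35 ± 0.25 and 1.48 ± 0.28 on the log2 scale. The comparison at 72 h is also one of unlike second numbers.

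Signal transducers and feedback genes of these receptors, 16 in all and all tested, were mostly lower after activation: 10 of 16 lay below naive and 3 above at 18 h of experiment 2 (median -0.69), where 33.6% of all genes lay below. Socs3, an inhibitor of cytokine signalling, was at 93.1 CPM in naive cells and 4.09 at 18 h, and Cish, an inhibitor induced through STAT5, at 22.4 and 147. Socs3 was higher in CD62L positive cells by 1.49 ± 0.23 at 48 h and 1.34 ± 0.19 at 72 h in experiment 1 and by 1.77 ± 0.23 at 48 h in experiment 2 (edgeR adjusted p = 4.47e-05, 7.76e-06 and 5.45e-08). At 48 h 7 of 16 were higher and 1 lower at high (median 0.54, against 0.04 over all genes, of which 25.9% passed). At 72 h 3 of the 16 were higher and 2 lower at high, where 26.5% of all genes passed.

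Among 25 factors that transcribe cytokine genes, 10 of 22 tested were higher in mature than in naive cells and 2 lower (median log2 difference 0.51, against 0.04 over all genes, of which 7.82% were higher and 8.59% lower). Maf, an activator of Il4 and Il10, was at 125 CPM in mature and 28.7 in naive cells, and Prdm1 at 26.5 and 8.55. In CD62L positive cells of experiment 1, 4 of 22 factors were higher and 4 lower at 48 h and 5 and 4 at 72 h (medians 0.15 and 0.02), where 4.05% and 2.46% of all genes were higher and lower at 48 h and 10.1% and 9.35% at 72 h. Bhlhe40, a factor that supports Csf2 and Ifng and represses Il10, was lower there by 1.13 ± 0.18 and 1.26 ± 0.21, and Irf4 by 0.89 ± 0.13 and 1.30 ± 0.14. In experiment 2, 2 of 21 were higher and 8 lower in CD62L positive cells at 48 h, where 14.5% of all genes passed, and Bhlhe40 was at 15.5 against 70.2 CPM. At 72 h Irf4 alone passed, lower by 0.68 ± 0.17, where 1.53% of all genes did. At 72 h 10 of 21 were higher at high than at low and none lower (median 0.71, against 0.01 over all genes, of which 26.5% passed in either direction). Bhlhe40 was at 93.1 against 12.6 CPM. Concentration and second number cannot be told apart at that time.

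Of 9 genes for processing of the cytokines or decay of their messenger RNA, 5 lay above naive and 2 below at 18 h of experiment 2 (median log2 difference 1.10), where 32.3% of all genes lay above and 33.6% below. Furin, the protease that cuts the TGF-beta 1 precursor, rose by 1.68 ± 0.31 on the log2 scale there, from 11.1 to 35.5 CPM. Lrrc32, which encodes the surface anchor of latent TGF-beta 1 and also marks regulatory T cells, was higher in CD62L positive cells at 48 h, at 34.4 against 8.53 CPM in experiment 1 and 61.4 against 12.1 in experiment 2. It was at 79.9 CPM at high and 14.2 at low at 48 h. Regulatory T cell markers (Foxp3, Il2ra, Ikzf2, Ctla4, Tnfrsf18, Nrp1, Lrrc32 and Gpr83) summed to 189 to 230 CPM in naive and 757 to 2144 in activated libraries of experiment 2. Whether this sum follows the number of regulatory T cells was not tested. Zfp36, which binds AU-rich elements and speeds decay, rose from 48 to 72 h in experiment 1, from 42.8 to 143 CPM.

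The genes whose mean level over the 13 groups of experiment 2 ran most like a member were found by Pearson's r on log2 CPM, with no test. For Il3 these were Zc3h12d (r = 0.924), Mars2 (0.916) and Ankrd32 (0.905), and for Il16 they were 2610035D17Rik (0.979), Tmc6 (0.965) and Uqcc3 (0.965). For Tgfb1 they were Mlst8 (0.926), Zdhhc7 (0.902) and Qpctl (0.864), and for Mif they were Eif2ak4 (0.956), Tgif2 (0.935) and Trim32 (0.928). The points share the naive group and the order in time.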

How the data were processed

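RNA of CD4 T cells was read as 3′ end libraries with poly-T primers carrying molecular identifiers and T7 amplification, per the labels' protocols. The deposited values are raw counts per gene symbol, 1 column per library, in 1 table per experiment. The aligners STAR 2.5.2b and HISAT 0.1.5, the counter HTSeq 0.9.1, FastQC 0.11.7, bcl2fastq 2.17.1.14 and the build mm9 are named in the submitters' processing notes. Identifier collapse, strand setting and annotation: not given in the sources used here. Without collapse, amplification copies would widen the spread between libraries. Il3, Csf2 and Il16 overlap another RefSeq gene (LOC115487722, Gm12223, Phgdh-ps1), which could share reads.

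Each table was fitted alone in edgeR 4.0.16 (R 4.3.3, limma 3.58.1): TMM, filterByExpr with a minimum count of 10, a mean per group, robust quasi-likelihood tests, and Benjamini-Hochberg adjustment over all genes tested (22 comparisons in all). The scripts were tested on simulated data. A group at 0 was set to a floor of 3 counts over the group, and ratios of pooled counts have exact 95% intervals. Folds given as at least take the counts of the other group as observed, so they are not lower confidence limits. Floor and intervals cover counting error only. Same-group libraries differed by 1.32 to 16.5 times the variance of counting (chi-square per degree of freedom), so none was taken as a repeat. Alternatives were RLE size factors, DESeq2 1.42.0, no filter, the compared groups alone, the replicate number as a block, the second title number, and each library left out. Members and lists were chosen with earlier results of these data known. Named list genes are up to 3 per list and comparison with the largest difference among those that passed without overlap; Cd8a and Klrb1c were named by that rule, and genes like a member are the 3 with the highest r.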

Additional observations from a re-analysis of the deposited data

Results flagged for a closer look

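The difference between high and low starting concentration changed over the 4 times of experiment 2 for 2 of the 4 cytokine genes tested, by the edgeR quasi-likelihood test of the change itself. For Mif the adjusted p was 2.22e-06, and the log2 difference, high minus low, was -0.29 at 18 h, 0.52 at 30 h, 0.35 at 48 h and 1.16 at 72 h. For Tgfb1 it was 0.00486, and the differences were -0.03, -0.03, 0.22 and -1.36 at the same times. With the second title number as a factor the adjusted p for Tgfb1 was 0.283.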

How the results depend on the processing

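Of the single-gene differences, 66 of 66 kept their direction and their side of the threshold with RLE size factors. With DESeq2 56 did and 2 lost their call. With no filter 57 did, 1 lost its call and 1 turned in direction. With the compared groups alone 56 did and 3 lost their call. With each library left out 483 did, 44 lost their call, 2 gained one and 13 turned in direction. With the second title number as a factor, in experiment 2 alone, 28 did, 6 lost their call and 1 turned in direction. The replicate numbers do not pair the libraries: deviations of libraries with the same number correlated with a median of -0.012 in experiment 1 and 0.0019 in experiment 2. With the replicate number as a block Ifng in mature against naive cells (adjusted p = 0.0665) and Tgfb1 by CD62L at 48 h (0.0543) lost their calls, so that 0 of 5 and 1 of 4 members passed there. The log2 difference of Il16 in high minus low at 72 h was 0.00156 with the block and -0.02 without it, and passed with neither.

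Directions that turned were of differences that had not passed, except for Tgfb1 by CD62L at 48 h of experiment 2, which had. Not all were near 0. Tgfb1 turned from -0.24 for activated minus naive cells of experiment 1 and from 0.22 for high minus low at 48 h. With second title number 1 alone, an alternative added after seeing the data, Tgfb1 by CD62L at 48 h was 0.427 and Mif by CD62L at 72 h -0.0111. With number 2 alone, high minus low at 48 h was -0.0522 for Il16 and -0.0831 for Tgfb1, and with the number as a factor -0.0637 for Tgfb1. Without the filter high minus low at 30 h was 0.00720 for Tgfb1. With a library left out, differences ranged from -0.0780 to 0.172 (Il16, CD62L at 48 h, experiment 2), -0.0347 to 0.163 (Il16, CD62L at 72 h), -0.0211 to 0.204 and -0.0896 to 0.0392 (Il16, high minus low at 48 and 72 h), -0.0335 to 0.128 (Mif, CD62L at 72 h), -0.170 to 0.00165 and -0.418 to 0.291 (Tgfb1 in experiment 1, CD62L at 72 h and activated minus naive), and -0.138 to 0.0779 and -0.0979 to 0.0321 (Tgfb1, high minus low at 18 and 30 h).

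The number of members that passed moved as follows. In experiment 1, mature minus naive gave 0 with DESeq2 and 0 to 1 with a library left out, and the CD62L change gave 1 without the filter and 0 to 1 with a library left out. In experiment 2, 18 to 30 h gave 1 with the compared groups alone and 1 without the filter; 30 to 48 h at high gave 1 to 2, and 48 to 72 h 0 to 1 at high and 1 to 3 at low, with a library left out; with the second number as a factor the last 2 gave 0 and 1. CD62L at 48 h gave 0 with the compared groups alone, with number 1 alone and with the factor, 1 with DESeq2, and 0 to 2 with a library left out. High minus low gave 0 to 1 at 18, 30 and 48 h with a library left out, and at 48 h 0 with the compared groups alone, without the filter, with number 2 alone and with the factor. The change over the 4 times gave 1 with the factor and 1 to 3 with a library left out. The cause was not tested. DESeq2 gave Il3 at 18 h no adjusted p, and its count there is left out.

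Counts over all genes moved by more than 1.5 times in these cases. The CD62L change in experiment 1 gave 169 genes, 255 with DESeq2, 279 without the filter and 73 to 250 with a library left out; its CD62L difference at 48 h gave 583 and 380 to 549, and mature minus naive 1471 and 768 to 1428. In experiment 2 the factor moved 18 to 30 h from 2270 to 1117, 30 to 48 h at low from 857 to 504 (491 to 798 with a library left out), 48 to 72 h at high from 2170 to 1277, CD62L at 48 h from 1341 to 844 (531 with number 1 alone, 810 to 1466 with a library left out) and high minus low at 72 h from 2447 to 1531 (1417 to 2224). CD62L at 72 h gave 141 genes, 231 with the compared groups alone, 229 with DESeq2, 59 with number 1 alone and 50 to 119 with a library left out. High minus low gave 173 at 18 h, 517 with the groups alone and 94 to 154 with a library left out; 791 at 30 h and 469 to 581; and 2397 at 48 h, 1528 with the groups alone and 914 with number 2 alone. The step from 48 to 72 h at low gave 2386 and 1281 to 2461. In the 250 bases before the start alone, 55.6% of promoters held GGAAA, 6.75% TGANTCA, 12.4% TATAAA and 22.6% GATAA.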
